A study of Mus musculus with 238 samples.

Results

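The genes described here are 9 markers of GABAergic interneurons, the nerve cells that release the inhibitory transmitter GABA: Gad1, Gad2, Slc32a1, Pvalb, Sst, Vip, Calb1, Calb2 and Reln. They were chosen by name, with earlier results of these data known, and all 9 have a row among the 21076 genes of the count table. RNA of 15 brain regions was sequenced in bulk from C57BL/6JN mice of 19 months of age, with 229 brain libraries from 16 mice. The diet cohort held females that either were dietary restricted (aDR, 5 mice) or ate ad libitum (AL, 4 mice). In the plasma cohort, males received Young Mouse Plasma (YMP, 3 mice) or PBS (4 mice) by retro-orbital injection. Each cohort is of 1 sex, so a difference between the cohorts cannot be told apart from a difference between the sexes. Most regions had a library of each mouse, and the smallest group was corpus callosum of YMP mice, with 2. The labels name no genotype other than the strain, and they do not give the length of the restriction or the number of injections.

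GABA is made from glutamate by glutamate decarboxylase, whose isoforms GAD67 and GAD65 are encoded by Gad1 and Gad2. The vesicular transporter encoded by Slc32a1 (VGAT) loads GABA, and glycine, into synaptic vesicles, so these genes are shared by nearly all inhibitory neurons, long-range projection neurons of the striatum and Purkinje cells of the cerebellum included. The other members mark subclasses. Pvalb (parvalbumin), Calb1 (calbindin) and Calb2 (calretinin) encode calcium-binding proteins, Sst and Vip encode the neuropeptides somatostatin and vasoactive intestinal peptide, and Reln encodes the secreted glycoprotein reelin. In cerebral cortex, parvalbumin, somatostatin and VIP mark largely separate interneuron classes, while calbindin, calretinin and reelin are also made by other neurons.

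Sst and Vip are textbook targets of cyclic AMP signalling through an element in their promoters. The 250 bases before their RefSeq start sites (GRCm38.p6) are shown because the regional levels of these peptide genes are set side by side here, and the letters of the element can be seen in each. The Sst window lies at chr16:23890845-23891094 on the reverse strand and the Vip window at chr10:5638968-5639217 on the forward strand. Capitals mark matches, on either strand, to the palindrome TGACGTCA, to its shorter form TGACGTC (which every full palindrome also holds) and to TATAAA, the letters of a TATA box.
Sst: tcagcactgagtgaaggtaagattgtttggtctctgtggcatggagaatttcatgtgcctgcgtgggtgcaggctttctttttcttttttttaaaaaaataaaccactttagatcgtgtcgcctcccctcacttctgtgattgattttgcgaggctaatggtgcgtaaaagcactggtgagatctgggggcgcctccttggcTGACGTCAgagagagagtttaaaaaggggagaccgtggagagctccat
Vip: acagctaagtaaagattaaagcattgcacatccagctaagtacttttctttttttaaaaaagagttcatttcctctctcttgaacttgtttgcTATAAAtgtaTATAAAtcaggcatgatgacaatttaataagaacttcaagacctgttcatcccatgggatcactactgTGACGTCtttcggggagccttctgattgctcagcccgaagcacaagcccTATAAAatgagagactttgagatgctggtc
In Sst the palindrome began 48 bases before the RefSeq start. The GENCODE M21 span of Sst starts further upstream, at 23890958 on the reverse strand, so the palindrome lies inside that span. In Vip the shorter form began 79 bases before the start, and TATAAA began 157, 147 and 30 bases before it. Of 32851 promoter windows of this length, 1.55% held TGACGTCA, 2.78% held TGACGTC and 12.4% held TATAAA. A match describes the letters only.

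Brain libraries held 0.606 to 32.4 M counts (median 8.47 M), and 6 held under 2 M. Levels are given as CPM, a library's counts scaled to a common total with TMM, and spread is given as the lowest and highest library around the median. Some libraries went against their region label in the marker lists, whose sums are CPM without the 9 members. In the pons, the hindbrain list (Hox and brainstem transmitter genes) summed to 4.23 CPM in AL mouse 68, 6.42 in YMP mouse 77, 8.11 in aDR mouse 64 and 31.6 in aDR mouse 67, against 83.6 to 152 in the other 11 pons libraries. A sum under 40 CPM is called low in what follows. The pons library of aDR mouse 67 was also unlike the rest in make-up. Its 10 most counted genes took 23.35% of its counts, against 5.72% to 7.12% in the other pons libraries. The choroid plexus libraries, which should be mostly epithelium, held neuron markers at a median sum of 7924 CPM, and plexus markers from 156 to 15430 CPM. The SVZ libraries fell into 7 with plexus markers at 28.8 to 313 CPM and 9 with 2923 CPM or more, and the corpus callosum libraries held striatal projection neuron markers at 3555 to 10060 CPM. The part of these markers in the member levels was not tested. In bulk tissue, fewer cells of a type and less RNA per cell cannot be told apart.

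The GABA synthesis and loading genes shared the ends of their regional orders, with the olfactory bulb at the top and the thalamus at the bottom. Caudate putamen and SVZ followed olfactory bulb for each. In between, the orders differed: medulla ranked 13 for Gad1, 7 for Gad2 and 4 for Slc32a1, and hypothalamus 10, 4 and 6. Gad1 (chromosome 2, 70553072 to 70602014, forward strand, GRCm38, GENCODE M21) had a median of 2588 CPM (1935 to 2717, n = 16) in olfactory bulb, whose interneurons are replaced throughout life. Caudate putamen, where nearly all neurons are GABAergic, followed with 927 CPM (605 to 1167, n = 16), and SVZ with 774 CPM (444 to 1269, n = 16). In order of mean log2 level, the next medians of Gad1 were 739 CPM in cerebellum, 584 in choroid plexus, 562 in corpus callosum, 559 in posterior hippocampus, 527 in motor cortex, 529 in visual cortex, 488 in hypothalamus, 474 in anterior hippocampus and 417 in entorhinal cortex. The cortical and hippocampal regions thus lay within a narrow band. The medians were lower in medulla (median 262 CPM, 119.5 to 313, n = 16), pons (median 229 CPM, 23.5 to 542, n = 15) and thalamus (median 57.1 CPM, 6.22 to 176, n = 16), a region of few local interneurons in the mouse. The 11 pons libraries not low in hindbrain markers had 107 to 307 CPM, and the 4 low ones had 23.5 to 542 CPM. In thalamus the lowest Gad1 value was that of aDR mouse 65 and the highest that of AL mouse 68.

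Gad2 (chromosome 2, 22622205 to 22693874, forward strand), whose product makes GABA mainly at nerve terminals, had the same regions at both ends on a lower scale. Its medians were 518 CPM (418 to 554, n = 16) in olfactory bulb, 357 CPM (302 to 515, n = 16) in caudate putamen, 353 CPM (200.1 to 747, n = 16) in SVZ and 313 CPM (205 to 561, n = 14) in hypothalamus. Hypothalamus thus stood next to SVZ for Gad2, while for Gad1 it stood among the cortical regions. The remaining medians of Gad2 were 245 CPM in corpus callosum, 224 in choroid plexus, 173 in medulla, 142 in cerebellum, 137 in pons, 126 in motor cortex, 114 in anterior hippocampus, 124 in entorhinal cortex, 114 in posterior hippocampus and 104 in visual cortex. The thalamus was again lowest, with 40.03 CPM (4.26 to 94.9, n = 16). Slc32a1 (chromosome 2, 158610767 to 158615748, forward strand) had 39.2 CPM (23.5 to 46.5, n = 16) in olfactory bulb, 31.3 CPM (23.2 to 47.6, n = 16) in caudate putamen and 25.9 CPM (15.8 to 44.6, n = 16) in SVZ. Medulla, where glycine neurons also use the transporter, came next by mean level with 25.98 CPM (14.6 to 29.97, n = 16). Slc32a1 medians elsewhere were 17.8 CPM in corpus callosum, 16.6 in hypothalamus, 14.1 in cerebellum, 13.8 in choroid plexus, 13.97 in pons, 9.39 in motor cortex, 7.91 in visual cortex, 7.88 in posterior hippocampus, 6.65 in entorhinal cortex and 5.40 in anterior hippocampus. In thalamus Slc32a1 was near the limit of detection at 2.11 CPM (0 to 4.91, n = 16), and 5 of the 16 libraries had at most 3 counts. The 1 library at 0 counts allows up to 0.492 CPM, a limit (3 counts) that covers counting error only.

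**Figure D1:**
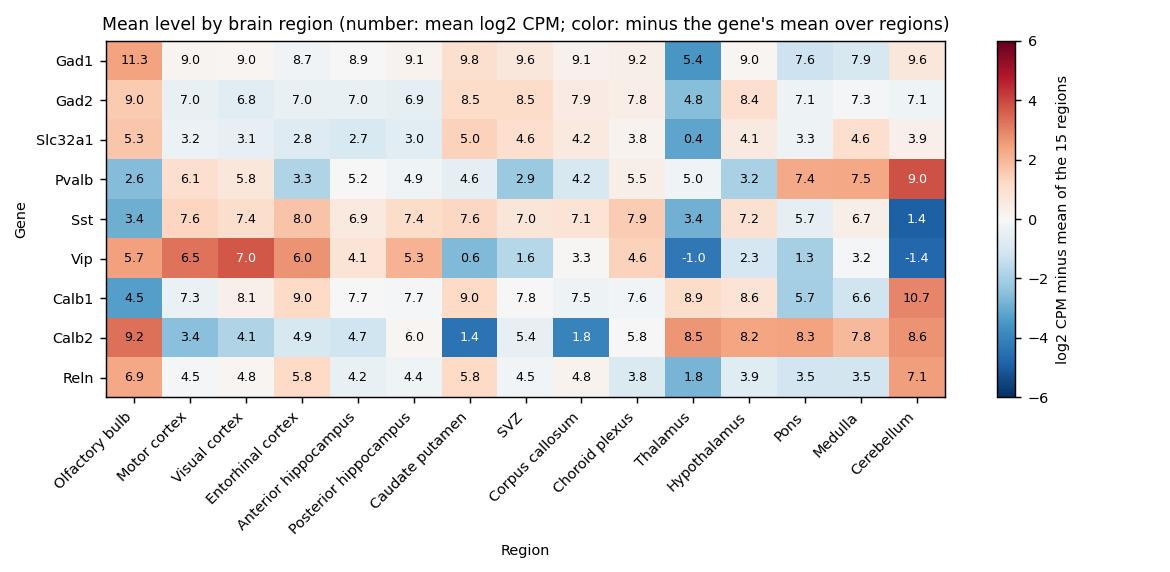
Mean log2 CPM (TMM, prior count 2) of the 9 genes (rows) in the 15 brain regions (columns), over 12 to 16 libraries a region, with each cell colored by its difference from the gene's mean over regions. Red is above and blue below that mean: Gad1, Gad2 and Slc32a1 are bluest in thalamus, Pvalb and Calb1 reddest in cerebellum, Calb2 bluest in caudate putamen, and Sst and Vip bluest in cerebellum.

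Within a region and treatment group, the SD over mice of the log2 level had a median of 0.225 for Gad1, 0.32 for Gad2 and 0.31 for Slc32a1, and of 0.38 to 0.79 for the other members. Regions next to each other in a gene's order of mean log2 levels were compared within mouse by an exact two-sided sign-flip permutation test. The order comes from the same values, and p-values were given Benjamini-Hochberg adjustment over all 126 pairs of the 9 genes. Of these, 41 differed over the mice of both cohorts, treated and control together. Other genes were not ordered in this way, so no share over all genes stands beside this count. In the control mice alone 0 of 126 differed, where 8 mice limit p to 0.00781 or more in the same test. Gad1 was higher in olfactory bulb than in caudate putamen (1.45 on the log2 scale, higher in 16 of 16 mice, adjusted p = 0.000699), and so were Gad2 (0.46 on the log2 scale, higher in 14 of 16 mice, adjusted p = 0.0011) and Slc32a1 (0.30 on the log2 scale, higher in 14 of 16 mice, adjusted p = 0.0102), all by the exact permutation test. Between caudate putamen and SVZ, Slc32a1 differed (0.34 on the log2 scale, higher in 16 of 16 mice, adjusted p = 0.000699), while Gad1 and Gad2 gave adjusted p = 0.0971 and 0.869 by the exact permutation test. The thalamus stood below its neighbour for all 3 genes, by 2.31 for Gad1, 1.98 for Gad2 and 2.25 for Slc32a1 on the log2 scale (adjusted p = 0.00283, 0.0011 and 0.0011, exact permutation test). From choroid plexus to anterior hippocampus the 6 successive Gad1 pairs gave no difference beyond their spread. The same held for the 4 Gad2 pairs from cerebellum to entorhinal cortex. For Slc32a1, none of the 8 pairs from hypothalamus to anterior hippocampus passed the test. Without the 4 pons libraries low in hindbrain markers, 41 pairs differed, but not the same 41. For Calb1, medulla over pons went from 0.87 to 1.62 on the log2 scale (adjusted p = 0.23 and 0.0316, exact permutation test), and pons over olfactory bulb from 1.29 to 0.50 (adjusted p = 0.0467 and 0.401, exact permutation test). Pons also changed neighbours in the orders of Pvalb and Reln. For Gad1, pons over thalamus had adjusted p = 0.00849 by the exact permutation test.

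**Figure D2:**
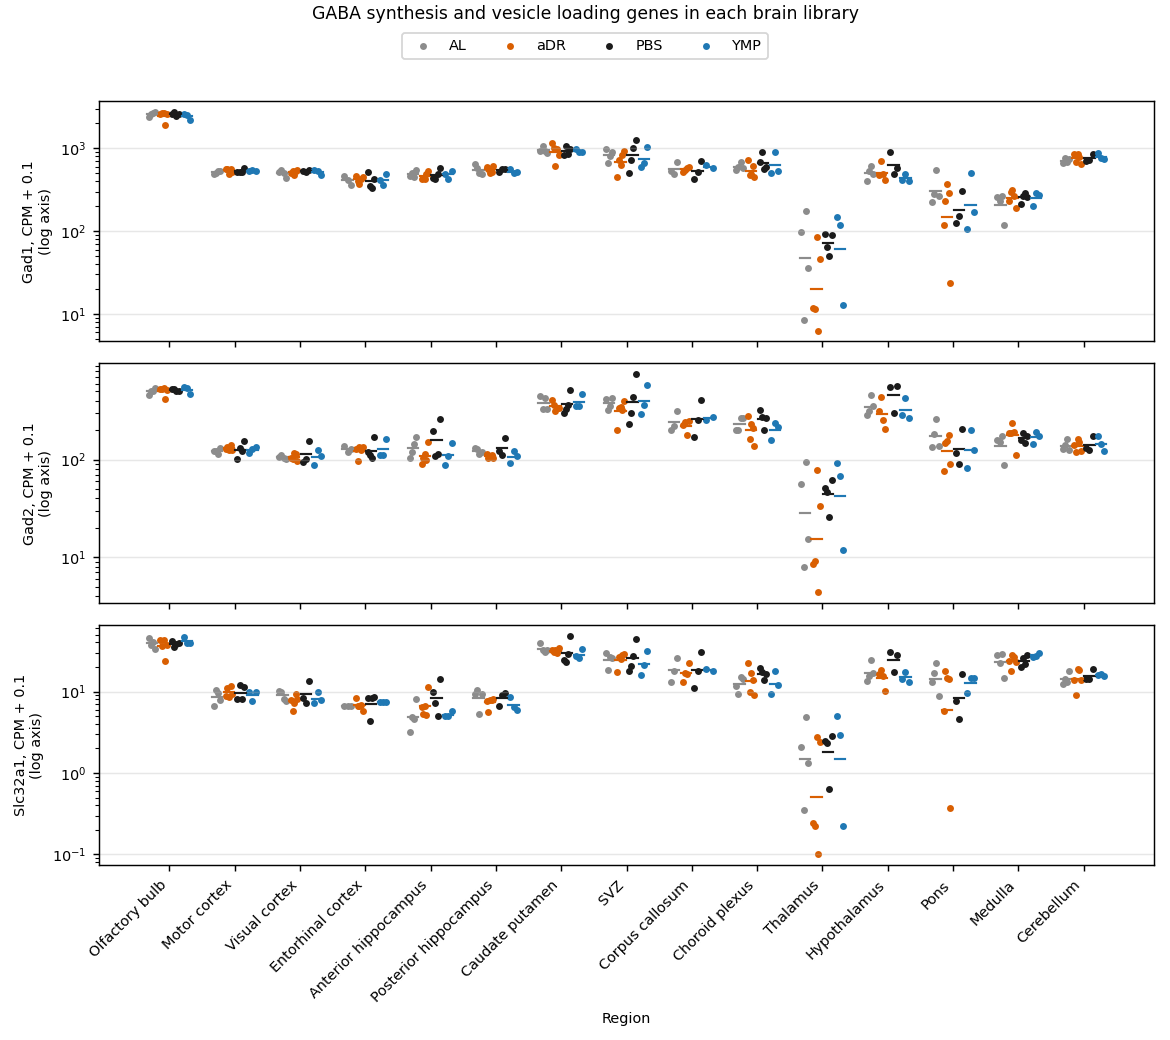
CPM + 0.1 on a log axis of Gad1, Gad2 and Slc32a1 (panels) in each of the 229 brain libraries, by region and by treatment group (colors), with a short line at each group's geometric mean. Olfactory bulb is the highest region for all 3 genes and thalamus the lowest, with thalamic Gad1 spread from 6.22 to 176 CPM.

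The subclass markers followed orders of their own. Pvalb (chromosome 15, 78191114 to 78206400, reverse strand), which fast-spiking basket cells and Purkinje cells make, had its highest median in cerebellum at 508 CPM (381 to 654, n = 15). The brainstem followed, with 201 CPM (53.2 to 305, n = 15) in pons and 171 CPM (116 to 373, n = 16) in medulla. The 4 pons libraries low in hindbrain markers had 53.2 to 113 CPM, all below the 184 to 305 CPM of the other 11. Among forebrain regions, Pvalb medians were 69.05 CPM in motor cortex, 57.9 in visual cortex, 43.5 in choroid plexus, 35.02 in anterior hippocampus, 34.3 in thalamus, 29.1 in posterior hippocampus, 22.4 in caudate putamen, 17.9 in corpus callosum, 8.96 in hypothalamus, 8.52 in entorhinal cortex, 6.26 in SVZ and 5.75 in olfactory bulb. Motor cortex exceeded visual cortex (0.33 on the log2 scale, higher in 14 of 15 mice, adjusted p = 0.0035 by the exact permutation test), and below visual cortex no pair of neighbours differed. Pvalb was spread widely in caudate putamen, from 4.54 CPM in AL mouse 63 to 174 CPM in aDR mouse 62. The oligodendrocyte list summed to 10290 CPM in the first of these libraries and 26550 CPM in the second, and its part in the Pvalb values was not tested. In entorhinal cortex, 13 of 15 libraries had 2.88 to 11.4 CPM of Pvalb, while PBS mouse 72 had 54.6 and aDR mouse 62 had 71.3.

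Sst (chromosome 16, 23889573 to 23890958, reverse strand), made by dendrite-targeting interneurons and by hypothalamic neurons, was broadly spread over the forebrain. Its highest median was 265 CPM (154 to 370.3, n = 15) in entorhinal cortex. The medians of Sst in the next regions were 234 CPM in choroid plexus, 196 in motor cortex, 186 in caudate putamen, 171 in visual cortex, 171 in hypothalamus, 165 in posterior hippocampus, 139.7 in SVZ, 135 in corpus callosum, 122 in anterior hippocampus, 108 in medulla and 62.2 in pons. None of the 10 pairs of neighbours from entorhinal cortex to medulla differed beyond their spread, so the order between neighbours in that stretch is not resolved. Pairs further apart were not compared directly. Against the mean of the other regions, Sst stood at 1.67 ± 0.23 in AL and 1.99 ± 0.18 in PBS mice in entorhinal cortex and at 0.26 ± 0.23 in AL and 0.20 ± 0.22 in PBS mice in medulla (log2, ± SE). Below it came a step: Sst was 10.2 CPM (2.66 to 52.8, n = 16) in thalamus, 9.40 CPM (6.03 to 30.7, n = 16) in olfactory bulb and 1.56 CPM (0.570 to 22.5, n = 15) in cerebellum. Olfactory bulb was thus highest for the synthesis genes and among the lowest for Sst. The cerebellar maximum came from aDR mouse 64, and 12 of 15 cerebellum libraries were under 4 CPM.

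Vip (chromosome 10, 5639218 to 5647617, forward strand), made by interneurons that mainly inhibit other interneurons, had its highest medians in cortical regions. The median was 126 CPM (101 to 160.4, n = 15) in visual cortex, 90.5 CPM (71.5 to 116, n = 16) in motor cortex and 61.9 CPM (38.1 to 88.95, n = 15) in entorhinal cortex. Vip was higher in visual than in motor cortex (0.46 on the log2 scale, higher in 15 of 15 mice, adjusted p = 0.000699, exact permutation test) and in motor than in entorhinal cortex (0.56 on the log2 scale, higher in 14 of 15 mice, adjusted p = 0.00144, exact permutation test). Entorhinal cortex and olfactory bulb, the next region, did not differ beyond their spread (0.23 on the log2 scale, adjusted p = 0.079, exact permutation test). In all, 7 of its 14 neighbour pairs differed, against 3 to 5 for the other members. Further down, Vip medians were 54.5 CPM in olfactory bulb, 47.05 in posterior hippocampus, 30.8 in choroid plexus, 17.2 in anterior hippocampus, 9.95 in corpus callosum, 7.89 in medulla, 3.23 in hypothalamus, 2.80 in pons, 2.27 in SVZ, 1.18 in caudate putamen and 0.175 in thalamus. In cerebellum the median was 0, and 11 of the 15 libraries had no Vip count, which allows up to 0.231 to 0.617 CPM depending on the library total. In thalamus, 7 of 16 libraries had no count, which allows up to 0.315 to 0.400 CPM. A hypothalamus library of aDR mouse 64 had 99.9 CPM of Vip, against 1.18 to 16.4 CPM in the other 13 hypothalamus libraries.

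**Figure D3:**
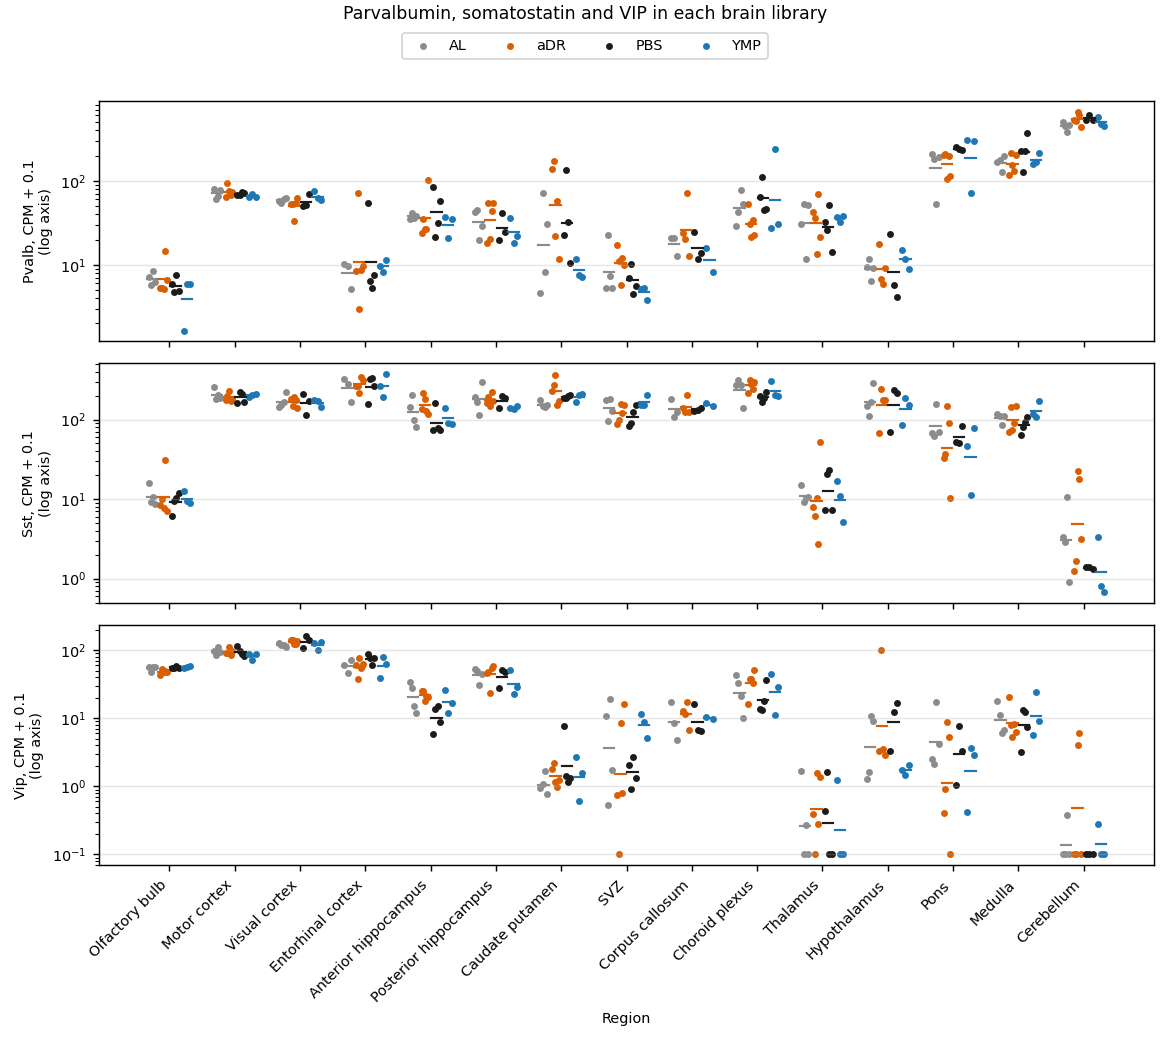
CPM + 0.1 on a log axis of Pvalb, Sst and Vip (panels) in each of the 229 brain libraries, by region and treatment group (colors), with a short line at each group's geometric mean. Pvalb is highest in cerebellum, Sst is low in olfactory bulb, thalamus and cerebellum, and Vip runs from visual cortex down to libraries at 0 CPM (drawn at 0.1) in thalamus and cerebellum.

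Calb1 (chromosome 4, 15881264 to 15908064, forward strand), which Purkinje cells, dentate granule cells and medium spiny neurons also make, had a median of 1610 CPM (1175 to 2111, n = 15) in cerebellum. It was higher there than in the next region, caudate putamen (1.68 on the log2 scale, higher in 15 of 15 mice, adjusted p = 0.000699, exact permutation test). Purkinje cell markers other than Calb1 summed to a median of 5467 CPM in cerebellum and 1162 CPM or less in every other region. Calb1 medians elsewhere were 508 CPM in entorhinal cortex, 502 in caudate putamen, 478 in thalamus, 391 in hypothalamus, 263 in visual cortex, 242 in posterior hippocampus, 232 in anterior hippocampus, 226 in SVZ, 208 in choroid plexus, 182 in corpus callosum, 156 in motor cortex, 90.5 in medulla, 45.9 in pons and 21.6 in olfactory bulb. Calb1 spread most in pons, where the 11 libraries not low in hindbrain markers had 8.89 to 97.7 CPM and the 4 low ones had 174 to 221 CPM. The 2 sets of pons libraries did not overlap.

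Calb2 (chromosome 8, 110137502 to 110168210, reverse strand) had its highest median in olfactory bulb, where many periglomerular and granule interneurons make calretinin, at 593 CPM (442 to 658, n = 16). Cerebellum (median 411 CPM, 223 to 514, n = 15), whose granule cells make calretinin, pons (median 357 CPM, 99.8 to 421, n = 15), thalamus (median 347 CPM, 98.04 to 816, n = 16) and hypothalamus (median 315 CPM, 206 to 415, n = 14) followed, and the 3 pairs of neighbours among them by mean level did not differ beyond their spread. Medulla had 216 CPM (161 to 392, n = 16). Calb2 then dropped to medians of 67.05 CPM in posterior hippocampus, 63.8 in choroid plexus, 38.6 in SVZ, 27.8 in entorhinal cortex, 24.4 in anterior hippocampus, 15.8 in visual cortex, 10.2 in motor cortex, 3.44 in corpus callosum and 2.09 in caudate putamen. The SVZ libraries of Calb2 ranged from 1.99 to 327 CPM.

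Reln (chromosome 5, 21884454 to 22344702, reverse strand), which cerebellar granule cells, mitral cells and layer 1 interneurons make, was highest in cerebellum at 134 CPM (118 to 188, n = 15) and in olfactory bulb at 122 CPM (111 to 139.5, n = 16). Caudate putamen (median 60.1 CPM, 31.2 to 78.8, n = 16) and entorhinal cortex (median 55.8 CPM, 26.04 to 95.7, n = 15), whose superficial projection neurons make reelin, came next and did not differ from each other (adjusted p = 0.983, exact permutation test). Reln medians in the other regions were 29.9 CPM in corpus callosum, 27.5 in visual cortex, 23.8 in motor cortex, 19.3 in posterior hippocampus, 19.1 in SVZ, 18.8 in anterior hippocampus, 14.4 in hypothalamus, 12.8 in choroid plexus, 10.7 in pons, 10.4 in medulla and 4.49 in thalamus. Thalamus stood below pons by 1.72 on the log2 scale in 15 of 15 mice (adjusted p = 0.000699, exact permutation test).

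**Figure D4:**
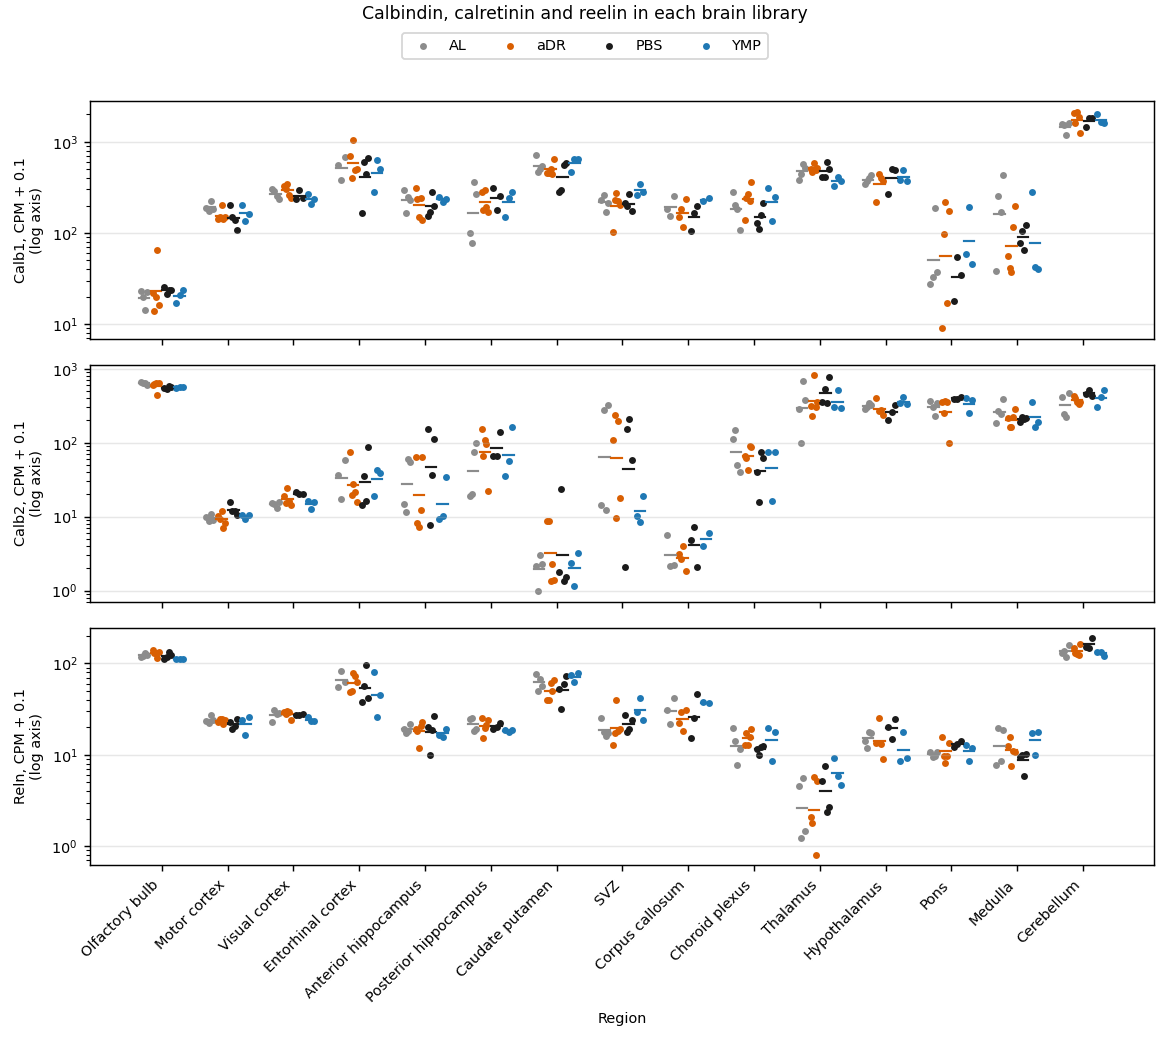
CPM + 0.1 on a log axis of Calb1, Calb2 and Reln (panels) in each of the 229 brain libraries, by region and treatment group (colors), with a short line at each group's geometric mean. Calb1 and Reln are highest in cerebellum and Calb2 in olfactory bulb, and the SVZ libraries of Calb2 spread from 1.99 to 327 CPM.

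Between genes, levels were compared per kilobase of exon (CPM per kb, exon union of GENCODE M21). In motor cortex, Sst stood at 271 CPM per kb, Gad1 at 69.04, Pvalb at 66.3, Vip at 26.6 and Slc32a1 at 3.36. In cerebellum the leading member was Pvalb at 488 CPM per kb, ahead of Calb1 at 332 and Calb2 at 236. Olfactory bulb was led by Calb2 at 340.2 and Gad1 at 339 CPM per kb. The leading member per length was thus a peptide gene in motor cortex and a calcium-binding protein gene in cerebellum, neither being particular to that region. Sst also led in entorhinal and visual cortex, both hippocampal regions, caudate putamen, choroid plexus, corpus callosum, hypothalamus and SVZ. Pvalb also led in medulla, and Calb2 in pons and thalamus. In olfactory bulb, Calb2 and Gad1 were nearly level. The exon union takes in the exons of every annotated transcript of a gene, so the order between genes depends on that choice of length.

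The regional differences were also tested against all genes, each region against the mean of the other 14, in the control mice of each cohort (edgeR quasi-likelihood test, Benjamini-Hochberg adjustment per region). In AL mice, 83 of 135 member tests were called (61.5%), 50 higher and 33 lower, against 47.6% of all tests, of which 25.4% were higher and 22.1% lower. In PBS mice, 76 of 135 were called (56.3%), 46 higher and 30 lower, against 41.3% of all tests, with 22.6% higher and 18.7% lower. Over all 135 tests, 123 had the same sign in both cohorts (110 of 120 without Vip). There were 72 tests called in both cohorts (65 without Vip), all 72 in the same direction, 11 called in AL alone and 4 in PBS alone. Shares over all genes were not computed for agreement between the cohorts, so these counts show nothing particular to the members. The log2 difference of olfactory bulb was 2.47 ± 0.19 in AL and 2.49 ± 0.13 in PBS for Gad1, and that of thalamus -2.88 ± 0.31 in AL and -3.00 ± 0.21 in PBS, with ± as SE. For Pvalb, cerebellum stood at 3.85 ± 0.22 in AL and 3.93 ± 0.30 in PBS and olfactory bulb at -2.63 ± 0.44 in AL and -3.13 ± 0.57 in PBS. Calb2 in caudate putamen stood at -5.29 ± 0.75 in AL and -4.01 ± 0.73 in PBS, the lowest of the 15 regions in AL mice. Sst was called higher in 10 regions and lower in 3 in AL mice, the lower ones being cerebellum, olfactory bulb and thalamus in both cohorts. Vip had no count in any of the 3 PBS cerebellum libraries, so its mean over regions has no finite estimate there and no fold is given for Vip in PBS. The Vip tests in PBS are for that reason of little use, and without cerebellum, a choice made after seeing the data, 72 of 126 member tests were called in PBS. The share of all tests under that choice is not given. In AL mice Vip was called higher in 7 regions, by 3.90 ± 0.29 in visual cortex.

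Over the 15 regions, the members' control means went together within the synthesis genes: r = 0.916 for Gad2 and Slc32a1, 0.825 for Gad1 and Gad2 and 0.775 for Gad1 and Slc32a1 (Pearson, n = 15 regions). By rank, the same pairs gave Spearman rho of 0.85, 0.679 and 0.704. These are descriptions, since the points share mice and libraries. Gad1 also went with Reln (r = 0.792). Among the subclass genes, Sst and Vip gave r = 0.582, Pvalb and Sst -0.323 and Pvalb and Vip -0.290, and Sst and Calb2 gave -0.629. Each gene's own regional profile was alike in the cohorts, with r from 0.956 (Slc32a1) to 0.990 (Sst) between AL and PBS means over 15 regions. The genes with the most similar regional profile, among 15210 compared by Pearson r over 15 regions, were Zfat (r = 0.897), Dlg2 (r = 0.894) and Pfkfb2 (r = 0.861) for Gad1, March4 (r = 0.863), Shisa2 (r = 0.859) and Loxl1 (r = 0.849) for Gad2 and Tpbg (r = 0.863), March4 (r = 0.828) and Sv2c (r = 0.827) for Slc32a1. For Pvalb the first 2 were Ccdc186 (r = 0.903) and Kif1b (r = 0.889). For Sst the genes were Pld3 (r = 0.931), Fbxw5 (r = 0.931) and Arnt2 (r = 0.928) and for Vip Cckbr (r = 0.944), Rcor2 (r = 0.943) and Crhbp (r = 0.939). For Calb1 they were Reep6 (r = 0.864), Tmem63c (r = 0.862) and Gpbp1 (r = 0.855), for Calb2 Whamm (r = 0.918), C2cd4d (r = 0.917) and Aqp9 (r = 0.914) and for Reln Zfat (r = 0.880), Gcnt7 (r = 0.871) and Mcf2l (r = 0.869).

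Across regions, no member was called with either treatment. For this test each mouse gave 1 value per gene, its log2 level after region was removed in a linear fit on region and mouse. The values of the groups were compared with limma over all genes. With diet, limma called 0 of 9 members and 0 had an unadjusted p under 0.05, against 0.922% and 16.1% of 15616 genes. The synthesis genes had the most negative differences: -0.17 ± 0.094 (SE; limma unadjusted p = 0.101, adjusted p = 0.412) for Gad1, -0.17 ± 0.11 for Gad2 and -0.17 ± 0.10 for Slc32a1, all log2, aDR minus AL. The Gad1 values of the aDR mice were -0.14, -0.083, 0.13, -0.093 and -0.19, and those of the AL mice 0.13, -0.078, 0.35 and -0.022. The groups overlapped, and the highest value was that of AL mouse 68, 1 of the mice with a pons library low in hindbrain markers. The other diet differences were 0.17 ± 0.22 for Pvalb, 0.073 ± 0.27 for Vip, 0.034 ± 0.19 for Calb2, 0.0071 ± 0.14 for Sst, -0.031 ± 0.067 for Reln and -0.033 ± 0.12 for Calb1.

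With plasma, 0 of 9 members were called and 0 had an unadjusted p under 0.05, against 0% and 8.09% of 15768 genes in the same limma test. The smallest p was that of Calb1, at 0.23 ± 0.11 (SE; limma unadjusted p = 0.0792, adjusted p = 0.644), YMP minus PBS. Its values were 0.15, 0.17 and 0.070 in YMP mice and -0.32, -0.23, 0.083 and 0.082 in PBS mice, so the groups overlapped. Pvalb followed with -0.30 ± 0.16 (SE; limma unadjusted p = 0.0897, adjusted p = 0.652) and Calb2 with -0.32 ± 0.20 (SE; limma unadjusted p = 0.149, adjusted p = 0.71). The PBS values of Pvalb ran from -0.17 to 0.54 (the highest in mouse 72) and the YMP values from -0.23 to -0.13. The rest were -0.10 ± 0.16 for Slc32a1, -0.093 ± 0.16 for Gad2, -0.042 ± 0.10 for Gad1, 0.0098 ± 0.094 for Vip, 0.079 ± 0.16 for Sst and 0.10 ± 0.10 for Reln.

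**Figure D5:**
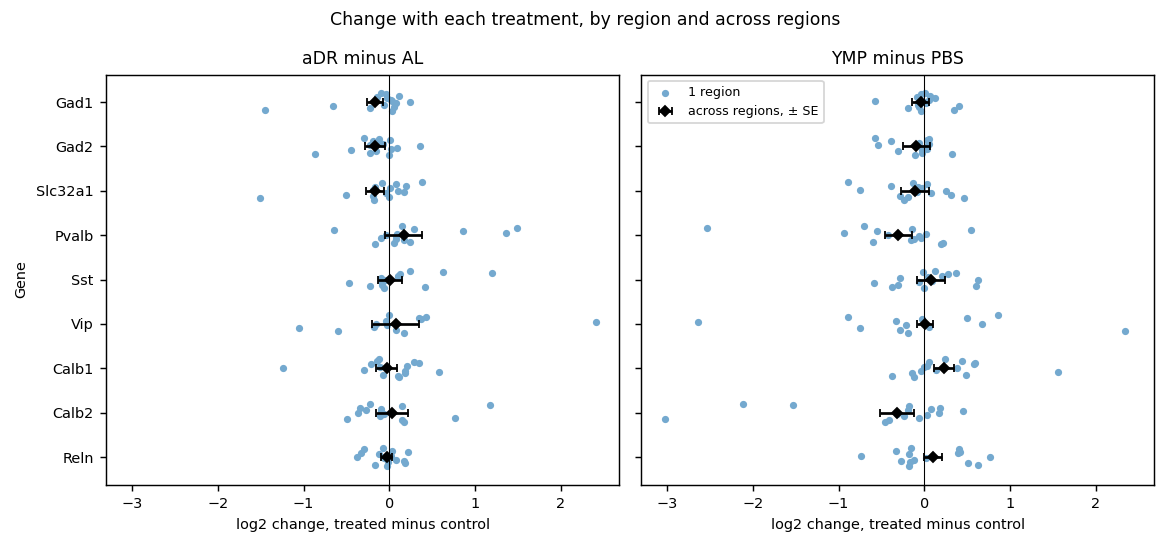
Log2 change of each gene (rows) with diet (left, aDR minus AL) and plasma (right, YMP minus PBS). Blue points are single brain regions (edgeR), and black diamonds with bars are the change across regions ± SE (limma, 1 value per mouse). The diamonds lie between -0.32 and 0.23, while single regions reach -3.03 for Calb2 and 2.34 for Vip with plasma, both in SVZ.

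Whether a treatment's change differed between regions was tested with the region by treatment terms of an edgeR quasi-likelihood model. No member was called with diet or with plasma, against 0.0128% and 0.786% of all genes. At an unadjusted p under 0.05 there were 0 of 9 members with diet, against 2.14% of genes, and 2 of 9 with plasma, against 7.62%. These 2 were Vip (edgeR unadjusted p = 0.00352, adjusted p = 0.191) and Reln (unadjusted p = 0.045, adjusted p = 0.629).

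Within single regions, diet gave 0 calls in 133 member tests with edgeR, against 0.0525% of all tests, and 0 with DESeq2. At an unadjusted p under 0.05 there were 6 edgeR tests, which is 4.51% of them against 6.24% of all tests. In motor cortex, Calb1 was 141, 149, 202, 141 and 149.7 CPM in aDR mice and 189, 174, 224 and 184 CPM in AL mice, a log2 difference of -0.29 ± 0.10 (SE; edgeR unadjusted p = 0.00717, adjusted p = 0.282). Mouse 64 lay within the AL range and the other 4 aDR mice below it, and without mouse 64 the test was past the threshold, at -0.41 (unadjusted p = 8.88e-06, adjusted p = 0.00659). In caudate putamen, Sst was 227, 274, 361, 153 and 172 CPM in aDR mice and 175, 146, 144 and 151 CPM in AL mice, a difference of 0.62 ± 0.23 (SE; edgeR unadjusted p = 0.0199, adjusted p = 0.618). The highest Sst value was that of aDR mouse 64, and the groups overlapped. In cerebellum, where Pvalb comes from Purkinje cells and molecular layer interneurons, Pvalb was 528, 508, 654, 604 and 436 CPM in aDR mice and 507, 449, 381 and 456 CPM in AL mice, with overlap and a difference of 0.29 ± 0.11 (SE; edgeR unadjusted p = 0.0213, adjusted p = 0.288). The Vip differences were -0.18 ± 0.073 (SE; edgeR unadjusted p = 0.0273, adjusted p = 0.306) in olfactory bulb and 0.17 ± 0.064 (SE; edgeR unadjusted p = 0.0181, adjusted p = 0.409) in visual cortex. Gad2 in posterior hippocampus differed by -0.16 ± 0.064 (SE; edgeR unadjusted p = 0.0311, adjusted p = 1). All 3 sets of groups overlapped.

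The widest diet differences had an unadjusted p above 0.05. Those described here were chosen after their values were seen, and they are not all of the widest. Some differences not described were wider than that of Gad2 in thalamus, given below. Of these, Pvalb in entorhinal cortex, Sst in cerebellum and Calb2 in caudate putamen were higher in aDR mice. Calb1 in medulla and Vip in pons were lower in aDR mice. In thalamus, Gad1 was 11.6, 11.5, 83.97, 6.22 and 46.6 CPM in aDR mice and 97.7, 8.47, 176 and 35.99 CPM in AL mice, a log2 difference of -1.45 ± 0.84 (SE; edgeR unadjusted p = 0.114, adjusted p = 0.99). Slc32a1 and Gad2 in the same libraries differed by -1.51 ± 0.999 (SE; edgeR unadjusted p = 0.158, adjusted p = 0.99) and -0.87 ± 0.85 (SE; edgeR unadjusted p = 0.327, adjusted p = 0.99). High and low libraries of these genes occurred in both groups. Without AL mouse 68 the differences were -0.69 for Gad1, -0.66 for Slc32a1 and -0.14 for Gad2, and without aDR mouse 64 they were -2.21 for Gad1 and -1.82 for Gad2. In hypothalamus, Vip was 3.22, 99.9, 3.39 and 2.78 CPM in aDR mice and 1.18, 1.54, 10.8 and 9.13 CPM in AL mice, a difference of 2.41 ± 1.26 (SE; edgeR unadjusted p = 0.0848, adjusted p = 0.986). The highest value was that of aDR mouse 64, and without that mouse the difference turned to -0.80 (unadjusted p = 0.298, adjusted p = 0.999), lower in aDR. Pvalb in caudate putamen was 137, 174, 22.2, 58.1 and 11.5 CPM in aDR and 4.54, 72.1, 8.08 and 30.8 CPM in AL mice, a difference of 1.49 ± 0.90 (SE; edgeR unadjusted p = 0.125, adjusted p = 0.618), with low and high libraries in both groups.

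Within single regions, plasma gave 0 calls in 133 member tests with edgeR, against 0.0127% of all tests. DESeq2 gave 2, both of Vip, in SVZ and in hypothalamus. The share of all tests that DESeq2 called is not given, so these calls are not set against all genes. There were 20 tests at an unadjusted p under 0.05, 15.0% of them against 6.11% of all tests, spread over 10 of the 15 regions with 5 in hypothalamus (where 4.36% of all genes passed that limit), 4 in SVZ (13.5%) and 3 in anterior hippocampus (7.12%). The members of 1 region share their libraries, so these tests are not independent.

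In SVZ, Vip gave the smallest edgeR p of the 266 member tests of treatment within a region. Vip was 11.7, 8.66 and 4.98 CPM in YMP mice and 1.95, 0.801, 2.60 and 1.25 CPM in PBS mice, a log2 difference of 2.34 ± 0.44 (SE; edgeR unadjusted p = 0.000749, adjusted p = 0.0936). The groups did not overlap, and the PBS values rest on 3 to 43 counts. With DESeq2 the difference was 2.37 (unadjusted p = 3.04e-06, adjusted p = 0.000328). Calb2 in the same libraries was 10.2, 8.33 and 18.9 CPM in YMP and 1.99, 154, 211 and 58.4 CPM in PBS mice, a difference of -3.03 ± 1.19 (SE; edgeR unadjusted p = 0.0348, adjusted p = 0.327). PBS mouse 72 had the lowest Calb2 value of all, below the YMP mice, and without that mouse edgeR gave -3.45 (unadjusted p = 0.000119, adjusted p = 0.0247). The SVZ differences of Calb1 and Sst were 0.49 ± 0.16 (SE; edgeR unadjusted p = 0.0161, adjusted p = 0.258) and 0.61 ± 0.22 (SE; edgeR unadjusted p = 0.0224, adjusted p = 0.285). The choroid plexus list moved with these groups, at 28.8 to 52.0 CPM in the 3 YMP libraries and 2923 to 20090 CPM in the 4 PBS libraries. The same split of SVZ libraries occurred in the diet cohort, in both groups: of the 7 SVZ libraries of either cohort with plexus sums of at most 313 CPM, 3 were YMP, 2 AL and 2 aDR. Those 7 had 4.98 to 19 CPM of Vip, and the 9 others had 0 to 2.60 CPM. Cerebral cortex markers were also higher in the 7, at 106 to 155 CPM against 49.1 to 86.4 CPM. Sst was 150.4 to 202 CPM in the 7 and 82.5 to 152 CPM in the 9, and Calb2 was 8.34 to 18.9 CPM and 1.99 to 327 CPM. In the plasma cohort this split and the treatment coincide in every library, so they cannot be told apart.

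In hypothalamus, 5 members had an unadjusted p under 0.05. Vip, which marks neurons of the suprachiasmatic nucleus there, was 1.62, 1.39 and 1.96 CPM in YMP mice and 3.23, 12.1 and 16.4 CPM in PBS mice, a difference of -2.64 ± 0.61 (SE; edgeR unadjusted p = 0.00277, adjusted p = 0.955). The groups did not overlap, and the YMP values rest on 11 to 14 counts. With DESeq2 the difference was -2.67 (unadjusted p = 4.54e-06, adjusted p = 0.0046), and without PBS mouse 72 edgeR gave -3.10 (unadjusted p = 2.69e-06, adjusted p = 0.0374). The AL mice of the other cohort had 1.18, 1.54, 10.8 and 9.13 CPM, from below the lowest YMP value to above the lowest PBS value. Gad1 was 417, 492 and 402 CPM in YMP and 906, 484 and 571 CPM in PBS mice, a difference of -0.58 ± 0.21 (SE; edgeR unadjusted p = 0.0273, adjusted p = 0.998). The highest Gad1 value was that of PBS mouse 72, whose hypothalamus list summed to 300.3 CPM against 1139 to 3627 CPM in the other 13 hypothalamus libraries. Without that library the Gad1 difference was -0.28 (unadjusted p = 0.0423, adjusted p = 0.549). Slc32a1 differed by -0.75 ± 0.22 (SE; edgeR unadjusted p = 0.00974, adjusted p = 0.998) and Reln by -0.74 ± 0.30 (SE; edgeR unadjusted p = 0.0417, adjusted p = 0.998), the latter -1.16 without YMP mouse 77. Calb2 differed in the other direction, by 0.45 ± 0.18 (SE; edgeR unadjusted p = 0.0367, adjusted p = 0.998), with 339, 415 and 332 CPM in YMP and 206, 259 and 329 CPM in PBS mice. Without PBS mouse 72 that difference was 0.29 (unadjusted p = 0.0722, adjusted p = 0.594). Thalamus markers without Calb2 summed to 324 to 770 CPM in the YMP hypothalamus libraries and 162 to 275 CPM in the PBS ones, and their part was not tested.

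In anterior hippocampus, Calb2 was 9.26, 10.01 and 34.2 CPM in YMP and 151, 7.71, 36.9 and 113 CPM in PBS mice, a difference of -2.12 ± 0.86 (SE; edgeR unadjusted p = 0.0371, adjusted p = 0.683). PBS mouse 76 had the lowest of these values, so the groups overlapped, and without PBS mouse 72 the difference was -1.59 (unadjusted p = 0.0948, adjusted p = 1). Thalamus markers without Calb2 summed to 109, 168 and 237 CPM in the YMP libraries and to 494, 146, 382 and 516 CPM in the PBS ones, in the same order of mice as the Calb2 values. The highest sums were those of the 2 PBS libraries with the most Calb2, the groups overlapped, and the part of these markers in the difference was not tested. Slc32a1 differed by -0.89 ± 0.31 (SE; edgeR unadjusted p = 0.0191, adjusted p = 0.683) and Vip by 0.86 ± 0.37 (SE; edgeR unadjusted p = 0.0459, adjusted p = 0.683) there. Without PBS mouse 84 the Slc32a1 difference was -0.56 (unadjusted p = 0.0663, adjusted p = 0.935), and without YMP mouse 73 that of Vip was 0.49 (unadjusted p = 0.231, adjusted p = 0.9).

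The other 8 plasma tests fell in 7 regions. Pvalb in caudate putamen was 11.6, 7.51 and 6.98 CPM in YMP and 22.6, 134, 32.02 and 10.4 CPM in PBS mice, a difference of -2.54 ± 0.85 (SE; edgeR unadjusted p = 0.015, adjusted p = 0.474). Oligodendrocyte markers summed to 37340 CPM in PBS mouse 76, which had the highest Pvalb value, and to 10010 to 15710 CPM in the YMP libraries, and their part was not tested. Without PBS mouse 76 the Pvalb difference was -1.35 (unadjusted p = 0.0056, adjusted p = 0.354). In pons, Calb1 was 58.5, 195 and 45.9 CPM in YMP and 17.95, 54.3 and 34.8 CPM in PBS mice, a difference of 1.56 ± 0.58 (SE; edgeR unadjusted p = 0.0257, adjusted p = 1), with the highest value in YMP mouse 77, the library low in hindbrain markers. Without it the difference was 0.64 (unadjusted p = 0.0788, adjusted p = 1). In medulla, Reln was 17.2, 9.90 and 17.9 CPM in YMP and 9.43, 9.97, 5.79 and 10.1 CPM in PBS mice, a difference of 0.77 ± 0.25 (SE; edgeR unadjusted p = 0.0101, adjusted p = 0.447), and Sst differed by 0.62 ± 0.20 (SE; edgeR unadjusted p = 0.00945, adjusted p = 0.447), or 0.38 without YMP mouse 81. In cerebellum, Reln was 133, 134 and 121 CPM in YMP and 152, 147 and 188 CPM in PBS mice without overlap, a difference of -0.33 ± 0.093 (SE; edgeR unadjusted p = 0.00635, adjusted p = 0.429). Calb2 in visual cortex was 15.97, 12.7 and 15.7 CPM in YMP and 21.4, 20.01 and 19.99 CPM in PBS mice, also without overlap, and differed by -0.46 ± 0.13 (SE; edgeR unadjusted p = 0.00477, adjusted p = 0.999). Calb1 differed by -0.38 ± 0.14 (SE; edgeR unadjusted p = 0.0284, adjusted p = 1) in thalamus and by 0.58 ± 0.25 (SE; edgeR unadjusted p = 0.049, adjusted p = 0.596) in corpus callosum, where the YMP group had 2 libraries and the latter difference was 0.37 without PBS mouse 76.

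Other genes of the pathway, from 3 lists chosen by function, were not called with either treatment in edgeR or limma. Of 15 genes of GABA handling (transporters, GABA breakdown, GABA-B receptors and the postsynaptic scaffold), 0 were called across regions and 3 with diet (20%) and 1 with plasma (6.67%) had an unadjusted p under 0.05, against 16.1% and 8.09% of all genes, with median log2 differences of -0.032 and -0.047. Of 18 interneuron transcription factors (Dlx, Lhx6, Nkx2-1 and others), 0 were called, with 1 (5.56%) and 2 (11.1%) at an unadjusted p under 0.05. Of 29 further subclass genes (Npy, Cck, Lamp5 and others), 0 were called, with 2 (6.9%) and 3 (10.3%) at an unadjusted p under 0.05. The lists hold 15 to 29 genes, so 1 gene moves these shares by several percent. Within regions, the lists gave 0 calls in 215, 200 and 377 tests with diet and 0 in 214, 209 and 375 with plasma, and the smallest adjusted p was 0.0519. With diet, the tests at an unadjusted p under 0.05 numbered 14, 13 and 22, or 6.51%, 6.5% and 5.84%, near the 6.24% of all tests. With plasma they numbered 16, 24 and 53, or 7.48%, 11.5% and 14.1%, against 6.11% of all tests. Tests of the same gene in several regions share mice, and the difference between these shares and that of all tests was not tested.

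Liver, a tissue without these neurons, was sequenced from the 9 diet mice. Of the members, 8 had at most 1 count in each liver library. Reln, which hepatic stellate cells make, stood at 30.6 to 44.6 CPM there, scaled by plain library totals.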

How the data were processed

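Bulk RNA of dissected tissue was extracted with RNeasy kits, amplified by Smart-Seq2 and made into Nextera XT libraries, which do not mark strand, per the labels' protocols. The authors deposited raw counts per gene and library. The submitters' processing notes name Trim Galore 0.3.7, STAR 2.5.3a, DESeq2 and the build GRCm38, and the counting program and annotation are not given in the sources used here. From the counts, genes were kept by filterByExpr (minimum count 10, minimum total 15), scaled by TMM and tested with edgeR 4.0.16 (quasi-likelihood) within regions, for region by treatment terms and for each region against the others in control mice. Changes across regions were tested with limma 3.58.1 on 1 mean log2 CPM (prior count 2) per mouse. p-values were adjusted by Benjamini-Hochberg over all genes of each fit, with a threshold of 0.05, in R 4.3.3. Tests were run first on simulated data. Alternatives were DESeq2 1.42.0, other size factors, no filter, prior count 0.5, left-out mice, libraries or regions, and the mouse as a block. No library pair looked like a duplicate (357 pairs, smallest chi-square per degree of freedom 1.29). Libraries of the same mouse deviated together only weakly (mean correlation 0.040 with diet and 0.0717 with plasma, against -0.0049 and -0.012 between mice), and the mouse comes from the labels. Named were the 9 members, every member and region with an unadjusted p under 0.05, the 3 genes most like each member in region profile, and called genes of the pathway lists, of which there were none. One gene that this rule names is not reported here. Members and lists were chosen with earlier results of these data known. With 2 to 5 mice a group, p-values measure the spread between these mice. The total of a library sets its counting precision.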

Additional observations from a re-analysis of the deposited data

Results flagged for a closer look

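In 60 groups of 4 or 5 mice or libraries screened, the highest or lowest value stood apart from the rest in 7. The single-region groups were those of the treatment tests given with a p above, chosen by their p or after their values were seen. Groups also share mice, so no chance rate can be set beside this count. In aDR mice, mouse 64 stood above the others over regions, for Gad2 (0.246 on the log2 scale, others -0.185 to -0.108) and Slc32a1 (0.251, others -0.204 to -0.0931), for Calb1 in motor cortex (201.5 CPM, others 140.5 to 149.7 CPM) and for Vip in hypothalamus (99.9 CPM, others 2.78 to 3.39 CPM). In PBS mice, mouse 72 stood below the others for Sst over regions (-0.471, others 0.098 to 0.129), and mouse 80 for Reln in medulla (5.79 CPM, others 9.43 to 10.1 CPM). In AL mice, mouse 66 stood below the others for Vip in olfactory bulb (48.4 CPM, others 56.2 to 57.5 CPM). Mouse 64 of the aDR group is also 1 of the 4 mice whose pons library was low in hindbrain markers.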

How the results depend on the processing

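Across regions and for the region by treatment terms, limma and edgeR called 0 members under every alternative run. Within regions, plasma gave 2 calls with DESeq2 against 0 with edgeR (Vip in SVZ and hypothalamus). Leaving out each mouse gave 0 to 1 calls with diet (Calb1 in motor cortex without aDR mouse 64) and 0 to 2 with plasma (Vip in hypothalamus and Calb2 in SVZ without PBS mouse 72). The causes were not tested. Shares of all genes under the alternatives, those of the region tests below included, are not given beside the member calls. The region calls ranged from 73 to 80 in AL and from 67 to 76 in PBS without single mice. Of the neighbour pairs, 0 of 126 differed in the control mice alone, where the fewer mice (8) limit p to 0.00781 or more, and 39 had an unadjusted p under 0.05 by the exact permutation test. With the mouse as a replicate block, 85 region tests were called in AL and 85 in PBS, and the block changed no treatment call. Several differences across regions, none called, changed sign. With diet, Sst gave -0.017 with the mouse as a block over all libraries, -0.015 without the block, -0.0031 without choroid plexus and -0.023 without libraries of low depth, and Calb2 gave -0.019 with the block and -0.021 without it. With plasma, Vip gave -0.027 without choroid plexus and, under choices made after seeing the data, -0.0049 without corpus callosum, -0.0091 without the 4 pons libraries and -0.25 without choroid plexus, corpus callosum and SVZ (unadjusted p = 0.0137, adjusted p = 0.958, limma), where Sst gave -0.015. Without single mice the diet differences ran from -0.084 to 0.086 for Sst, -0.13 to 0.21 for Vip, -0.10 to 0.031 for Calb1, -0.10 to 0.17 for Calb2 and -0.065 to 0.0083 for Reln. The plasma differences ran from -0.13 to 0.036 for Gad1, -0.17 to 0.044 for Gad2, -0.20 to 0.035 for Slc32a1, -0.067 to 0.16 for Sst and -0.10 to 0.081 for Vip. The diet difference of Vip in hypothalamus, 2.41 over all mice, ran from -0.80 without aDR mouse 64 to 3.00 without AL mouse 68. Libraries with 3 counts or fewer limit Vip in cerebellum (13 libraries), thalamus (9), pons (3), SVZ (3) and caudate putamen (1), Slc32a1 in thalamus (5) and pons (1) and Pvalb in olfactory bulb (1).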
